A study of Mus musculus with 8 samples.

Results

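Cadherins are calcium-dependent adhesion receptors that hold neighbouring cells together, and catenins are the cytoplasmic proteins that tie their tails to the actin cytoskeleton. The genes described here are 6 cadherins (Cdh1, Cdh2, Cdh3, Cdh5, Cdh11 and Cdh13) and 3 catenins (Ctnna1, Ctnnb1 and Ctnnd1). They were taken as every non-control probe whose gene name in the scanner files is one of these, which gave 11 probes for 9 genes, among 55681 probes under 36161 gene names. The samples were Csk-/- mouse embryonic fibroblasts (MEFs) transfected with pBKT2-c-Src, a vector that expresses c-Src when doxycycline is added. RNA was taken after 0, 6, 24 and 72 h of c-Src induction with doxycycline at 1 µg/ml, with 2 arrays for each time and 8 in all. The groups share the loss of Csk, the kinase that restrains Src, and the vector. The labels do not say whether the line is 1 clone. They give the arrays as duplicates and not as separate cultures, and p-values here therefore reflect array-to-array spread that could be purely technical. Doxycycline, time in culture and the row on the slide all follow the induction time and cannot be told apart from c-Src.

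In an adherens junction the outer domains of cadherins on adjacent cells bind each other. Beta-catenin (Ctnnb1) binds the cadherin tail and alpha-catenin (Ctnna1), which reaches actin, while p120-catenin (Ctnnd1), first known as a Src substrate, binds nearer the membrane and slows the removal of cadherins from the surface. Beta-catenin also acts with TCF/LEF factors in the nucleus as the transcriptional arm of Wnt signalling. Fibroblasts typically carry N-cadherin (Cdh2) and cadherin-11 (Cdh11), whereas E-cadherin (Cdh1) and P-cadherin (Cdh3) are typical of epithelia and VE-cadherin (Cdh5) of endothelium. T-cadherin (Cdh13) has a lipid anchor in place of a cytoplasmic tail.

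Cdh11, Cdh3, Ctnnb1 and Ctnnd1 each rest on a single probe above background, so the first 30 of the 60 bases of these probes are shown, in lower case and 5′ to 3′ as the scanner files list them. The second Cdh11 probe stands beside them because only the bright one gave a signal.
Cdh11, bright probe: tattttagtatacatacaaatatcagtatt
Cdh11, second probe: atagaactgtttgaaatcacaacagactga
Cdh3: tattttccctgttatgtgctgtagatggag
Ctnnb1: ttctaagaaccgagtaatggtgtagaacac
Ctnnd1: ccaccgaatactactaaggggcatatcttc
On the mm9 build of the files, the bright Cdh11 probe lies at chr8:105157473-105157532 and the second at chr8:105156895-105156927. The listed interval of the second spans 33 bases, against 60 for the bright one. Their listed transcript starts are 1442 for the second and 3578 for the bright one. Both are listed under the same transcript, from the higher to the lower coordinate. The second lies at the lower coordinates yet has the earlier start, so its listed position and start conflict on a single transcript. Whether both read the same transcript was not tested. The Cdh3 probe lies at chr8:109079933-109079992 and the Cdh1 probe, on the same chromosome, at chr8:109193812-109193871. Ctnnb1 was read at chr9:120869274-120869333 and Ctnnd1 at chr2:84440999-84441058. Cdh5 lies at chr8:106668159-106668218 and Cdh13 at chr8:121837969-121838028. The positions of the 2 Cdh2 probes and of the Ctnna1 probe are not given here. Exons were not assigned to the probes here.

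All arrays passed the same checks. The 75th percentile of the signal lay between 370.3 and 393, 49.9% to 54.7% of spots were well above background, 0 spots were saturated, and replicate arrays correlated across genes with r of 0.9963 to 0.9974. Src rose by 4.75, 4.57 and 4.29 on the log2 scale at 6, 24 and 72 h relative to 0 h. Of 9 fibroblast markers, 7 were well above background on all 8 arrays, collagens, Pdgfra, Pdgfrb, Fn1 and Vim among them, whereas Thy1 reached that level on 0 arrays and Postn on 2.

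Across the course of induction, Cdh11 was lower from 24 h on, Cdh2 and Cdh3 were higher from 24 h on, Ctnnb1 was higher from 6 h on, and Ctnnd1 passed the test against 0 h at 6 h alone. Ctnna1 did not pass the test at any time. Of the 9 genes, 6 were well above background (Cdh2, Cdh3, Cdh11 and the 3 catenins), and each of these was so on all 8 arrays. Differences were tested with limma on log2 signals over 20839 genes, with a call at a Benjamini-Hochberg adjusted p under 0.05. At 6 h relative to 0 h, 2 of the 6 were called higher and 0 lower, while 17.5% of all genes were called (10.3% higher, 7.19% lower). At 24 h, 3 were higher and 1 lower, with 41.5% of all genes called (21.3% higher, 20.1% lower). At 72 h again 3 were higher and 1 lower, with 52% called (27.4% higher, 24.6% lower). With 6 genes, these counts are a description beside the background. Median differences over the 6 genes were 0.07, 0.17 and 0.15 at 6, 24 and 72 h, and those over all tested genes were 0.00, -0.02 and 0.00. At 6, 24 and 72 h, the arrays of 5, 5 and 4 of the 6 genes did not overlap those at 0 h, a state shared by 62.7%, 69.9% and 78.1% of all genes. Between induced times, 24 h relative to 6 h had 2 higher and 1 lower beside 26.2% of all genes called (12.6% higher, 13.6% lower). For 72 h relative to 24 h it was 0 higher and 1 lower beside 21.6% (10.8% higher, 10.8% lower), and for 72 h relative to 6 h, 2 and 2 beside 45.2% (22.9% higher, 22.4% lower).

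**Figure D1:**
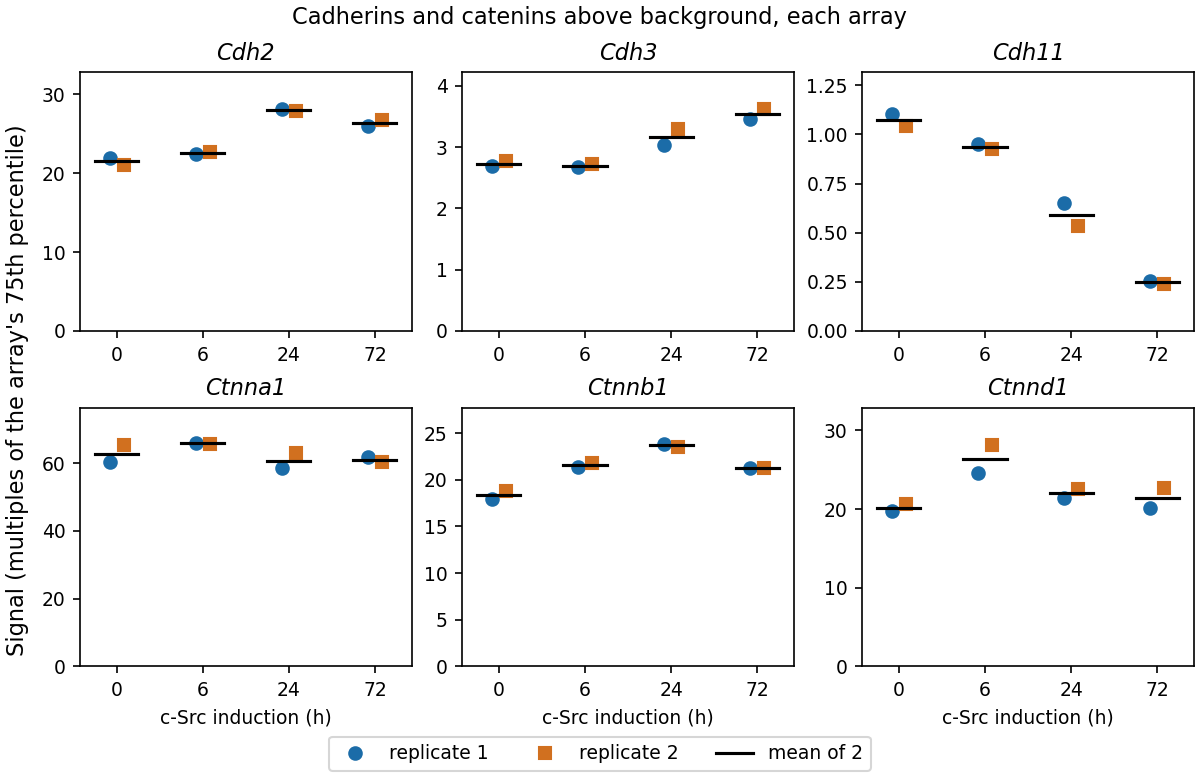
Signal of the 6 genes above background on each array, as multiples of that array's 75th percentile, against hours of c-Src induction; circles and squares are replicates 1 and 2 and bars are their means. Cdh11 is lowest at 72 h, at 0.256 and 0.240, with 1.102 and 1.04 at 0 h, a larger ratio between times than in the other 5 genes.

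Among the 3 cadherins above background, Cdh11 had the largest difference from 0 h at 24 and 72 h. Its bright probe read 1.102 and 1.04 times the array's 75th percentile at 0 h, 0.952 and 0.925 at 6 h, 0.652 and 0.533 at 24 h, and 0.256 and 0.240 at 72 h. Both arrays of each time lay below both arrays of the time before it. Cdh11 was 4.32-fold lower at 72 h than at 0 h, a log2 difference of -2.11 ± 0.10 (SE, n = 2 arrays each; limma adjusted p = 7.00e-05). Only 1.17% of the tested genes had a lower difference in this comparison. At 24 h it was 1.82-fold lower (-0.86 ± 0.10, adjusted p = 0.00176 by limma), while the change at 6 h, -0.19 ± 0.10, missed the threshold (adjusted p = 0.256). The fall continued between later times. Cdh11 fell by 0.67 at 24 h relative to 6 h (limma adjusted p = 0.00795) and by 1.25 at 72 h relative to 24 h (adjusted p = 0.00302). It was the only one of the 6 genes called in that last step. Under another background correction, normexp, the log2 difference at 72 h was -1.58, still past the threshold. The second Cdh11 probe reached the well-above-background level on 0 arrays, at signals of 2.45 to 13.60 in the scanner's units, so the fall rests on 1 probe.

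Genes that mark fibroblasts moved in the same direction as Cdh11. Of the 7 tested markers, 6 were lower at 72 h and 1 was higher, beside 24.6% and 27.4% of all genes. Their median log2 difference was -0.92. Pdgfrb and Pdgfra, receptors for platelet-derived growth factor, differed by -1.62 and -1.18 at 72 h, and the fibrillar collagen gene Col3a1 by -1.31. Vim, of the intermediate filament vimentin, rose by 0.65. The summed level of the 9 markers was 571 to 574.5 times the 75th percentile at 72 h, against 659.8 to 667.7 at 0 h. Markers of other cells moved too, beside the same 27.4% of all genes called higher and 24.6% lower at 72 h. Of 4 smooth muscle markers 3 were tested, with 1 higher (Acta2) and 1 lower (Cnn1) at 72 h (2 lower without replicate 2 of 0 h), and their summed level was 51.4 to 54.5 at 72 h, against 23.0 to 25.6 at 0 h. Acta2 made up most of that smooth muscle sum, with signals of 18440 and 18966 at 72 h, beside 1340 and 1376 for Tagln and 35 and 26 for Cnn1. Cnn1 fell by 3.16, Tagln was not called (-0.30), and Myh11 was never well above background. Of 5 macrophage markers 3 were tested and 2 were higher at 72 h, Cd68 and Csf1r, with Cd68 not well above background at 0 h. Another Csf1r probe differed by -0.24 at 72 h (limma adjusted p = 0.0413), and the count was 1 with the mean of a gene's kept probes. The summed level of the macrophage markers was 1.87 to 1.96 at 72 h, against 1.36 to 1.49 at 0 h, while the defining genes Ptprc and Adgre1 were never well above background. The part of these markers in the Cdh11 result was not tested, and in bulk RNA fewer cells of a type and less RNA per cell cannot be told apart.

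**Figure D2:**
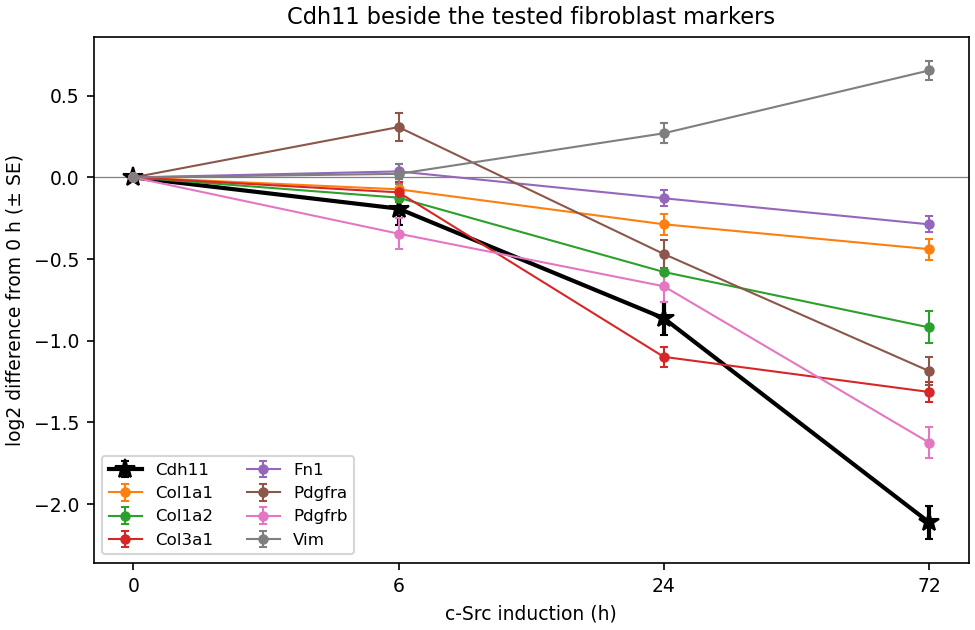
Log2 difference from 0 h (± SE of the fit) of Cdh11 and of the 7 tested fibroblast markers at 6, 24 and 72 h, with 0 h set to 0. Cdh11 ends at -2.11, below each of the 7 markers, and Vim rises to 0.65.

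Cdh2, N-cadherin of mesenchymal and neural cells, rose modestly and stayed raised. Its brighter probe read 21.9 and 21.1 times the 75th percentile at 0 h, 22.5 and 22.6 at 6 h, 28.2 and 27.9 at 24 h, and 26.0 and 26.8 at 72 h. The arrays at 24 and 72 h all lay above those at 0 and 6 h. Cdh2 was 1.30-fold higher at 24 h than at 0 h (log2 difference 0.38 ± 0.04, limma adjusted p = 0.00157) and 1.23-fold higher at 72 h (0.30 ± 0.04, adjusted p = 0.00269). At 6 h the change, 0.07 ± 0.04, missed the threshold (limma adjusted p = 0.328). At 24 h relative to 6 h Cdh2 was higher by 0.31, which passed it (limma adjusted p = 0.00631). The second Cdh2 probe, fitted alone, differed by 0.36 at 24 h and 0.28 at 72 h.

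Cdh3, P-cadherin, was higher at 24 and 72 h than at 0 h. It read 2.69 and 2.77 times the 75th percentile at 0 h, 2.67 and 2.72 at 6 h, 3.03 and 3.29 at 24 h, and 3.47 and 3.62 at 72 h. Arrays at 0 and 6 h overlapped, and those at 24 and 72 h lay above them. At 72 h Cdh3 was 1.30-fold higher than at 0 h (log2 difference 0.38 ± 0.06, limma adjusted p = 0.00287), a call kept in all 19 alternative settings. The 24 h difference was 0.21 ± 0.06 (limma adjusted p = 0.0303), but that call was lost in 10 of 19 settings (adjusted p up to 0.124), including without any 1 of 7 arrays, the exception being replicate 1 of 24 h. Cdh3 is typical of epithelia, and the epithelial markers were mixed. Of 11 markers 7 were tested, and 3 were higher and 2 lower at 72 h, beside 27.4% and 24.6% of all genes. Without replicate 2 of 72 h the counts were 2 and 1. The keratin gene Krt8 rose by 0.93, whereas Krt14, a keratin of basal epithelia, fell by 1.93. Grhl2, of an epithelial transcription factor, had a fitted difference of 0.73, but only 1 of its 2 arrays at 0 h was well above background. Epcam, Cldn3, Cldn4 and Ocln were never well above background, and the summed level of the 11 was 5.23 to 5.40 times the 75th percentile at 72 h, against 3.52 to 3.88 at 0 h. Krt8 was the largest part of this sum, with signals of 1570 and 1434 at 72 h. Their part in the Cdh3 result was not tested.

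The remaining 3 cadherins gave no measurable signal. Cdh1 has 10 spots on each array, and on an array 0, 1 or 2 of them were well above background. Its averaged signal was 7.51 and 9.11 at 0 h, 9.24 and 7.21 at 6 h, 6.99 and 7.63 at 24 h, and 7.49 and 7.13 at 72 h in the scanner's units, each below the lowest signal that was well above background on its array (9.92 to 15.16). Cdh5 lay between 2.52 and 3.93 and Cdh13 between 2.31 and 3.77. These values allow only an upper bound, so no fold is given. Fitted without the filter on dim probes, none of the 3 was called in any comparison, with adjusted p of 0.571 or more. For Cdh5, the endothelial markers Tie1, Emcn, Cldn5 and Esam were likewise never well above background. Pecam1, Kdr and Egfl7, by contrast, were so on all 8 arrays, Vwf on 5 and Tek on 4. Of the 9 endothelial markers, 5 were tested, and 0 were higher and 2 lower at 72 h, beside 27.4% and 24.6% of all genes. Tek, counted as lower, was well above background on 2 arrays at 0 h and on 0 at 72 h. Limited to probes well above background on all 8 arrays, 3 were tested and 1 was lower. With the mean of a gene's kept probes, 3 were lower. The brighter Kdr probe differed by -0.02 at 72 h and the other by -1.48 (limma adjusted p = 0.000969). The summed level of the 9 markers was 2.69 to 2.74 times the 75th percentile at 72 h, against 3.11 to 3.21 at 0 h.

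**Figure D3:**
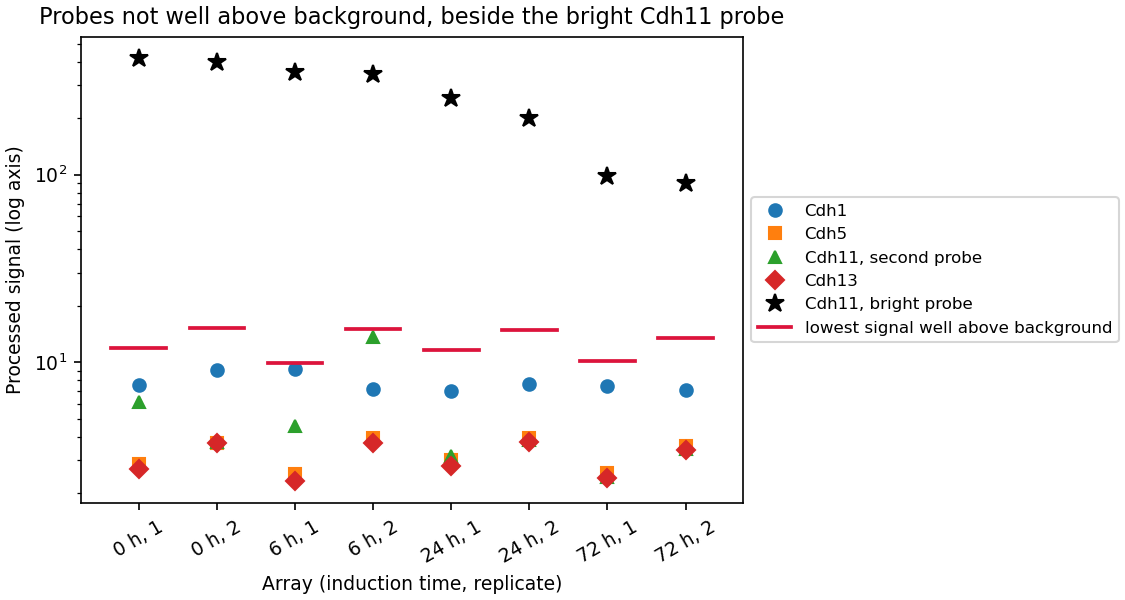
Processed signal in the scanner's units, on a log axis, of the 4 probes not well above background and of the bright Cdh11 probe on each of the 8 arrays; red bars are the lowest signal well above background on that array. All 4 dim probes lie under the bars, and the bright Cdh11 probe lies above them on all 8 arrays.

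Among the catenins, Ctnnb1 was higher than at 0 h at each of the induced times. Its probe, averaged over 2 spots, read 17.95 and 18.8 times the 75th percentile at 0 h, 21.4 and 21.8 at 6 h, 23.8 and 23.6 at 24 h, and 21.3 and 21.3 at 72 h. Every induced array lay above both arrays at 0 h, and the highest values were those at 24 h. Ctnnb1 was 1.29-fold higher at 24 h than at 0 h (log2 difference 0.37 ± 0.04, limma adjusted p = 0.00190), a call kept in all 19 settings. The 6 h rise was 1.18-fold (0.23 ± 0.04, limma adjusted p = 0.0215) and the 72 h rise 1.16-fold (0.21 ± 0.04, adjusted p = 0.0101). The 6 h call was lost in 10 of 19 settings (adjusted p up to 0.135), among them without any 1 array of 0, 6 or 72 h. The 72 h call was lost in 5 (adjusted p up to 0.0622), among them without replicate 1 of 0 h or either array of 72 h. The change from 24 to 72 h, -0.15, did not pass the test (limma adjusted p = 0.0593).

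Ctnnd1, p120-catenin, had its highest values at 6 h. It read 19.7 and 20.6 times the 75th percentile at 0 h, 24.6 and 28.2 at 6 h, 21.4 and 22.6 at 24 h, and 20.1 and 22.7 at 72 h. Both 6 h arrays lay above the other 6, while the arrays at 72 h and 0 h overlapped. The rise at 6 h was 1.31-fold (log2 difference 0.38 ± 0.09, limma adjusted p = 0.0415), and it was lost in 11 of 19 settings (adjusted p up to 0.166), including without any 1 of the 8 arrays. At 24 h and 72 h the differences from 0 h were 0.13 ± 0.09 (limma adjusted p = 0.324) and 0.08 ± 0.09 (adjusted p = 0.496). Both passed the test when arrays were scaled to their medians, at 0.28 and 0.26, a scaling that also moved the median of all genes by 0.13 at 24 h and 0.18 at 72 h. Set directly against 6 h, Ctnnd1 was lower at 72 h by a log2 difference of -0.30 (limma adjusted p = 0.0415, lost in 9 of 19 settings).

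Ctnna1, the catenin that links the complex to actin, did not pass the test at any time. It read 60.2 and 65.4 times the 75th percentile at 0 h, 66.1 and 65.7 at 6 h, 58.5 and 63.0 at 24 h, and 61.8 and 60.2 at 72 h. Arrays of 24 and 72 h overlapped those of 0 h. Its log2 difference at 72 h relative to 0 h was -0.04, with a 95% interval of -0.19 to 0.11 (limma adjusted p = 0.621), which leaves room for small changes in either direction.

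**Figure D4:**
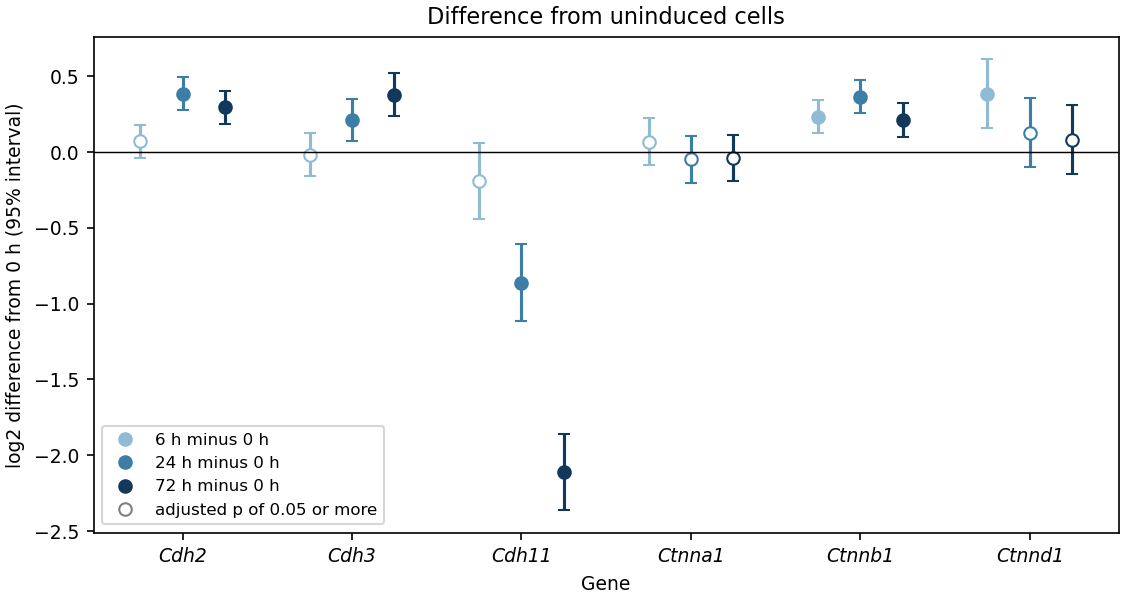
Log2 difference from 0 h of each of the 6 tested genes at 6, 24 and 72 h, with 95% intervals of the fit; filled points passed the test and open points did not. Cdh11 reaches -2.11 at 72 h, whereas the other 5 genes lie between -0.05 and 0.38.

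Both catenins raised at 6 h have an entry in RefSeq's table of promoters, which holds 2 of the 9 genes, and the 250 bases before each start are shown for them on GRCm38.p6. Capitals mark matches to the motifs searched, of which Ctnnb1 had 0 and Ctnnd1 had 2.
Ctnnb1, chr9:120933150-120933399, plus strand: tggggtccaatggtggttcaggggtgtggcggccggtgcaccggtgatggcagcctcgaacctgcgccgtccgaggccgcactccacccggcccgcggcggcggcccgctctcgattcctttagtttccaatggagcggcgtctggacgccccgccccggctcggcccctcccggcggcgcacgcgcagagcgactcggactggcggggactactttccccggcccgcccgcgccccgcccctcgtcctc
Ctnnd1, chr2:84658978-84659227, minus strand: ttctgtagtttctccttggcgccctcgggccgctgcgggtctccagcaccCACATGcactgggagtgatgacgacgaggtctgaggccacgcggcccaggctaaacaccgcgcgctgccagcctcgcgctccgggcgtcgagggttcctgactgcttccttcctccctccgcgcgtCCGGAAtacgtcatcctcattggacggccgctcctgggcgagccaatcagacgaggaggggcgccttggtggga
The windows hold 74.8% G and C for Ctnnb1 and 66.8% for Ctnnd1. In Ctnnd1 an E-box (CANNTG) starts at -200 and an Ets core (CCGGAA) at -74 relative to the start. Over 32851 windows of this length, on both strands, 66.2% hold an E-box, 12% the Ets core, 6.75% an AP-1 site (TGANTCA), 3.21% a TCF/LEF site (CTTTGAT) and 1.47% the CArG box bound by SRF. A match is a match of letters and not evidence of a bound factor.

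The genes whose log2 values ran most like those of each changed gene over the 8 arrays were listed as a description. For Cdh11 these were Gucy1a1, a subunit of soluble guanylate cyclase (r = 0.998), Ncam1, the neural cell adhesion molecule, and Slit3, a secreted guidance ligand, which differed by -2.77, -1.29 and -1.34 at 72 h relative to 0 h. For Cdh2 they were Skap2, a Src family adaptor, and a pair of unnamed transcripts. Cdh3 ran most like Trmt11, Phf10 and Smim26, Ctnnb1 like Cyth4, Psmd12 and Mfsd2a, and Ctnnd1 like Tspan2, Serpinb8 and Bcr. Cyth4, an ARF exchange factor, rose by 1.12, 1.73 and 1.14 at 6, 24 and 72 h.

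Other junction genes were read from companion lists. Of 17 other cadherins only Cdh8, Cdh12, Cdh15 and Cdh26 were tested, and 0 of the 4 were called by limma at 6, 24 or 72 h relative to 0 h. At an unadjusted p under 0.05 the counts were 1, 0 and 0, the 1 being Cdh15 at 6 h. At 6 h 1 of the 4 was called higher with median scaling, quantile normalization or an intensity trend. The same count was given by probes well above background on all 8 arrays. At 72 h 1 was called lower with normexp. Of the other catenins and plaque proteins, 17 of 22 were tested. At 6 h 6 were higher and 2 lower, at 24 h 5 and 5, and at 72 h 7 and 6, with medians of 0.06, 0.14 and 0.12, beside 17.5%, 41.5% and 52% of all genes called. With median scaling the counts were 6 and 1 at 24 h and 7 and 3 at 72 h, and with quantile normalization 5 and 8 at 24 h. Without any 1 array of 0 or 6 h, 4 were higher and 1 lower at 6 h, and without either array of 0 h, 3 were lower at 24 h. Vcl, which encodes the actin-binding plaque protein vinculin, rose by 0.93 at 6 h (limma adjusted p = 0.000426). Pvr and Nectin1, immunoglobulin-type adhesion receptors of the nectin group, rose by 1.41 and 1.11 at 72 h. Arvcf, the p120-catenin relative that also binds cadherin tails, fell, with log2 differences of -0.87, -1.81 and -2.02 at 6, 24 and 72 h, and was 4.05-fold lower at 72 h (limma adjusted p = 2.19e-05). Its second, dimmer probe differed by -0.69 at 24 h and -0.72 at 72 h, so the probes gave the same direction and different sizes. At 72 h the second Vcl probe passed, at 0.58. Pard3 counted as higher at 72 h (0.22), but its other probes differed by -0.16 (limma adjusted p = 0.0463), -0.08 and 0.17. Nectin2 counted as lower (-0.62), but its second probe, at -0.08, did not pass (limma adjusted p = 0.375). Nectin3 was not called, though its second probe passed at -0.43 (limma adjusted p = 0.00996).

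Of 10 genes listed under cadherin phosphatases, cleavage and turnover, 9 were tested. The counts were 1 higher and 0 lower at 6 h, 3 and 3 at 24 h, and 4 and 4 at 72 h, beside the same shares of all genes. With median scaling these became 4 and 1 at 24 h and 4 and 2 at 72 h. With no filter on dim probes, 0 were called at 6 h. The counts at 24 h were 2 and 2 with no filter or with only the 2 times compared, and 2 and 3 with the mean of a gene's kept probes. The 6 h call was lost without replicate 1 of 0 h or either array of 6 h, and without replicate 1 of 0 h or replicate 2 of 24 h the counts at 24 h were 2 and 2. Ptpn14, a tyrosine phosphatase, rose by 0.66 at 72 h. The phosphatase genes Ptpn1 and Ptprj fell at 72 h, at -0.77 and -0.69 on the log2 scale. A second Ptpn1 probe differed by -0.68 at 72 h. Other Ptprj probes differed by -1.41 and by -0.31, and the latter did not pass the test (limma adjusted p = 0.242). Adam10, a protease that sheds cadherin outer domains, fell by 0.44 at 24 h.

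Of 12 targets of beta-catenin 9 were tested, and 2 were higher and 2 lower at 6 h, 2 and 4 at 24 h, and 2 and 5 at 72 h. These counts stood beside 17.5%, 41.5% and 52% of all genes called, and the medians were -0.16, -0.09 and -0.39. Axin2 was well above background on 4 arrays and Nkd1 on 7, so both were kept through some of the times only. Limited to probes well above background on all 8 arrays, 7 targets were tested, without these genes. The counts were then 2 and 1 at 6 h, 2 and 2 at 24 h, and 2 and 3 at 72 h. With median scaling, or without any 1 array of 0 or 6 h, the counts at 6 h were 1 and 1. Axin2, a feedback inhibitor of the Wnt pathway, fell by 0.78 at 6 h, a call lost in 7 of 18 settings. Later it was not well above background. In the main processing it was at least 5.24-fold lower at 24 h and at least 5.78-fold lower at 72 h. With normexp the log2 differences were smaller, at -0.89 and -0.99, so the bounds hold for the main background treatment only. Each bound sets the later arrays, taken at their limit of measurement or at Axin2's own signal where higher, against the mean at 0 h. Lef1, a partner of beta-catenin on DNA, differed by -1.28 at 24 h and Nkd1, another feedback inhibitor, by -2.20 at 72 h. The size for Nkd1 depends on the background treatment, as normexp gave -0.72. Its signals at 72 h were 13.41 and 18.29, near the lowest signals well above background on those arrays (10.15 and 13.45). Myc rose by 1.43, 1.92 and 2.05 at 6, 24 and 72 h.

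All 7 repressors of Cdh1 were tested, and 5 were higher at 6 h, 6 at 24 h and 6 at 72 h, with 0 lower at each time, beside 10.3%, 21.3% and 27.4% of all genes called higher. The count at 6 h was 3 without replicate 2 of 6 h or with no filter on dim probes, and that at 24 h was 3 without replicate 1 of 0 h or with only the arrays of 0 and 24 h. At 72 h it stayed at 6 in each of the 19 settings, with 1 called lower in 5 of them. Tcf3 was the member not called at 72 h, at -0.13 (limma adjusted p = 0.0763). Its second probe, fitted alone, differed by -0.33 at 72 h (limma adjusted p = 0.0377). The second Tcf4 probe differed by -0.20 at 24 h and by 0.20 at 72 h, and neither passed the test (limma adjusted p = 0.0833 and 0.0747). Cdh1 itself was under the background limit at each time, 0 h included. Zeb2 rose by 0.81, Twist1 by 0.54 and Snai1 by 0.52 at 72 h. The second Zeb2 probe differed by 0.24 at 72 h and did not pass the test (limma adjusted p = 0.227).

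**Figure D5:**
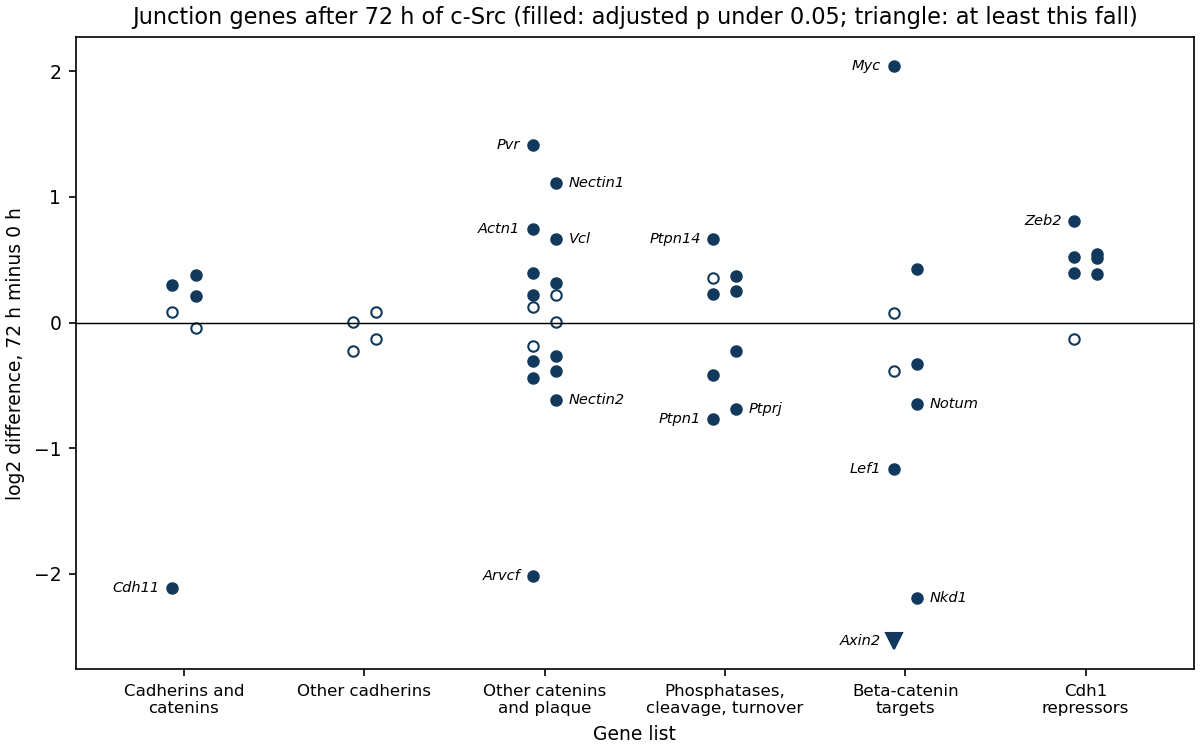
Log2 difference at 72 h relative to 0 h for each tested gene of the cadherins and catenins and of 5 companion lists; filled points passed the test, and called genes beyond 0.6 in size are named. Cdh11 and Arvcf lie lowest among the adhesion genes, at -2.11 and -2.02, and the triangle for Axin2 marks a fall of at least 5.78-fold in the main processing.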

How the data were processed

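Per the labels' protocols, total RNA was labelled with Cy3 and hybridised to 1-colour arrays. The deposited scanner files give a processed signal, an intensity on a linear scale that is background-subtracted, per the file headers. The headers name Feature Extraction 10.5.1.1 and the mm9 build, and the submitters' processing notes name 10.7.3.1. The value table, as deposited, repeats that intensity in rounded form. Here log2 signals were centred on each array's 75th percentile over 59305 spots. Probes were kept where both arrays of 1 or more times were well above background (28609 of 55681), and the brightest kept probe stood for its gene. Fits of 4 means over 8 arrays used limma 3.58.1 in R 4.3.3 (4 residual degrees of freedom), with Benjamini-Hochberg adjustment over 20839 genes, and were tested on simulated data. All arrays shared 1 slide and 1 scan. The number of arrays limits the precision (median SE 0.0754). Alternatives were background correction, scaling, probe filter, probe choice, value table, replicate block, intensity trend, fits on the 2 times compared, and leaving out each array. The comparison of 72 h with 6 h was added after seeing the data. Members and lists were chosen with earlier results of these data known. Named genes were all members, up to 3 called genes per list and time with the largest difference, and the 3 most alike to each called member. Replicate numbers were not taken as pairs. Figures used Python 3.11.15, pandas 2.3.3 and matplotlib 3.10.9.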

Additional observations from a re-analysis of the deposited data

Results flagged for a closer look

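Differences between induced times were tested directly for the 6 genes, and 8 passed, so that the effect relative to 0 h differed between those times. Cdh11 differed by -0.67 at 24 h relative to 6 h, by -1.25 at 72 h relative to 24 h, and by -1.92 at 72 h relative to 6 h. Cdh2 differed by 0.31 and 0.23 at 24 h and 72 h relative to 6 h, and Cdh3 by 0.23 and 0.40. Ctnnd1 was lower at 72 h than at 6 h, at -0.30. In these comparisons 26.2% (24 h with 6 h), 21.6% (72 h with 24 h) and 45.2% (72 h with 6 h) of all genes were called. The calls of Cdh3 at 24 h, of Ctnnd1, and of Cdh2 at 72 h were lost in 9, 9 and 3 of 19 settings.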

How the results depend on the processing

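Cdh11 at 24 and 72 h, Cdh2 at 24 and 72 h, Ctnnb1 at 24 h and Cdh3 at 72 h, each relative to 0 h, kept direction and call in all 19 settings. The count of the 6 genes called at 6 h, 2, was 1 with median scaling, 0 with quantile normalization, 0 with no filter on dim probes, 0 with only the 2 times compared, and 0 to 1 when 1 array was left out. With an intensity trend, 5 rather than 3 were called for 24 h relative to 6 h and 3 rather than 1 for 72 h relative to 24 h, and with no filter 2 rather than 4 for 72 h relative to 6 h. The causes were not tested. Same-numbered arrays shared a column of the slide as well as a number. Correlations of their deviations were 0.054 to 0.168, all positive. The lowest signal well above background was 9.92 to 11.96 for replicate 1 and 13.45 to 15.16 for replicate 2. With the replicate block 2, 4 and 4 genes were called at 6, 24 and 72 h, as without it. Ctnnd1 at 24 h relative to 6 h passed with the block (-0.26). Signs turned only in differences that did not pass. Relative to 0 h, median scaling gave 0.0354 for Cdh3 at 6 h and, for Ctnna1, 0.10 at 24 h and 0.14 at 72 h; quantile normalization gave -0.029 for Cdh2 and -0.0339 for Ctnna1 at 6 h and -0.0079 for Ctnnd1 at 72 h. Normexp gave -0.018 for Ctnna1 at 72 h relative to 24 h, and median scaling gave 0.0188 for Ctnna1 and 0.11 for Ctnnb1 at 72 h relative to 6 h. With 1 array left out, values relative to 0 h spanned -0.038 to 0.0039 for Cdh3 at 6 h, -0.1076 to 0.0121 for Ctnna1 at 24 h, -0.1001 to 0.0197 for Ctnna1 at 72 h and -0.0054 to 0.1684 for Ctnnd1 at 72 h, and for 72 h relative to 24 h -0.0455 to 0.0606 for Ctnna1 and -0.1317 to 0.0421 for Ctnnd1. Over all genes, 3642 were called at 6 h relative to 0 h, 2277 with median scaling (1751 higher, 526 lower), 1811 with only the 2 times and 871 with no filter, and as few as 1214 without replicate 2 of 6 h. At 24 h relative to 0 h, 8641 were called and 5598 with no filter. For 24 h relative to 6 h, 5451 were called, 2671 with only the 2 times, 2044 with no filter and as few as 2620 without 1 array. For 72 h relative to 24 h, 4508 were called, 2625 with median scaling, 1069 with only the 2 times, 928 with no filter and as few as 1084 without 1 array. For 72 h relative to 6 h, 9427 were called and 6249 with no filter. Cdh1, Cdh5 and Cdh13 lie below the background limit, so only a bound on their signal is known.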
